A study of Mus musculus with 12 samples.

Results

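The collagen genes are the 44 genes of the deposited tables, out of 56162, whose symbol is Col, a number, the letter a and a number. The rule uses the symbol and no measured value, and all 44 genes had both a read count and an FPKM value (counts scaled by the authors to gene length and library total). Of these, 11 encode fibrillar collagens, 8 encode basement membrane collagens and 25 encode other collagens. RNA was measured in 12 libraries from male C57BL/6J mice labelled as 8 weeks old, 3 in each of 4 groups. Type I trained libraries held slow soleus fibres of mice that ran on a treadmill for 6 weeks, and type I untrained libraries held the same fibres of mice that did not. Type IIb trained and type IIb untrained libraries held fast fibres of the extensor digitorum longus. Running took 60 min on 5 days a week at 12 to 16 m/min, and the muscles were taken 3 days after the last run. No transgene or deletion is named for any group. Both muscles were taken apart in collagenase at 2 mg/ml and 37 °C, an enzyme that cuts collagen protein, for 90 min in the soleus and for 60 min in the extensor digitorum longus. Fibre type, muscle and digestion time therefore cannot be told apart. One piece of each fibre served to identify its myosin heavy chain isoform and the remainder was lysed for the SMART-Seq HT kit, a cDNA amplification method for small RNA inputs. How many fibres or mice a library holds is not stated in the labels. The p-values below therefore cover the spread among these libraries alone, part of which may be technical.

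Collagens are secreted proteins in which chains wind into a triple helix, and glycine has to recur at regular steps along the helix because no larger side chain fits inside it. Fibrillar collagens have long unbroken helices and pack into the fibrils of tendon and of the connective tissue around muscle fibres. Basement membrane collagens form the sheet that surrounds each muscle fibre, capillary and nerve, and other collagens decorate fibrils, form beaded filaments or span the cell membrane. In skeletal muscle, fibroblasts, tendon cells and the cells of blood vessels are known as main sources of collagen RNA.

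The repeat that defines the family can be read in the coding sequences of GENCODE M21 (mm10), and it is shown because the length of its runs sets the fibrillar genes apart from the other classes. Each line gives 18 codons, 5′ to 3′, with codons for glycine (GGN) in capitals. The first 4 lines begin the longest run of glycine triplets of a fibrillar pair, a beaded filament chain and a basement membrane chain, and the last line is the end of the Col4a1 run, where the spacing is lost.
Col1a2, codons 97 to 114: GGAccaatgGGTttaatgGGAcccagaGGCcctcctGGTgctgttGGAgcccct
Col3a1, codons 164 to 181: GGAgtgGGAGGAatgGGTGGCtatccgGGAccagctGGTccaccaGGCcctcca
Col6a2, codons 271 to 288: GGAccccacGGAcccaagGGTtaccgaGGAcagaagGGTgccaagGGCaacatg
Col4a1, codons 43 to 60: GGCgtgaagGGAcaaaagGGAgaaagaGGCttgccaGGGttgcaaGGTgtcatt
Col4a1, codons 154 to 171: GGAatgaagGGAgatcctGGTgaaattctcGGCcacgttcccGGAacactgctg

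Counted over whole coding sequences, the longest unbroken run of such triplets had a median of 338 triplets in the 11 fibrillar collagens, with a range of 216 to 344 and 9 of 11 at 300 or more. In the 8 basement membrane collagens the longest run was 30 to 66 triplets, with a median of 41, and each of these genes had 11 to 27 separate runs of at least 5 triplets. The 25 other collagens had longest runs of 23 to 113 triplets, with a median of 52. The fibrillar genes therefore stood apart from both other classes by this measure, without overlap, while basement membrane and other collagens overlapped in length of run.

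**Figure D1:**
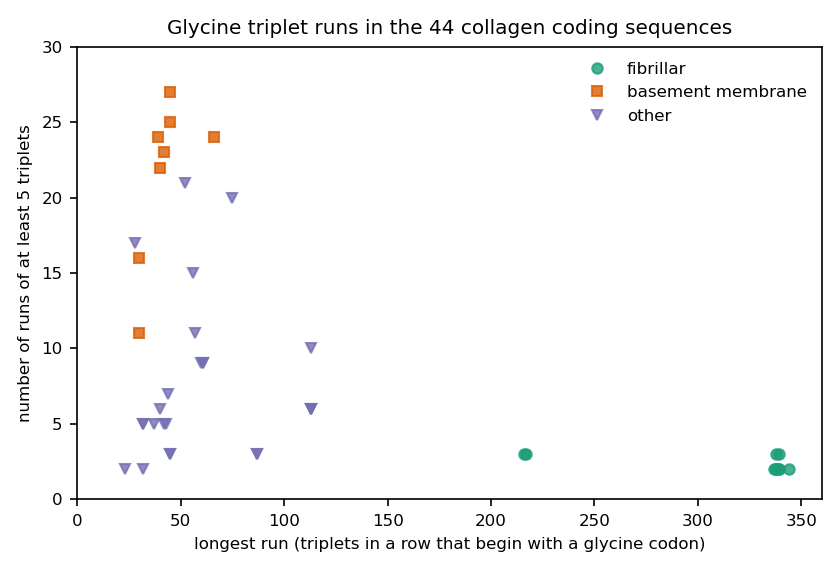
Longest run of triplets that begin with a glycine codon (x axis, triplets) against the number of runs of at least 5 triplets (y axis) for the 44 collagen coding sequences, 1 point per gene, coloured by class. The 11 fibrillar genes lie at 216 to 344 triplets with 2 or 3 runs, and the 8 basement membrane genes lie at 30 to 66 triplets with 11 to 27 runs.

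Several collagens are neighbours in the genome (mm10, GENCODE M21), which bears on how reads are assigned. Col4a1 (ENSMUSG00000031502, chromosome 8, 11198423 to 11312826, minus strand) and Col4a2 (ENSMUSG00000031503, chromosome 8, 11312805 to 11449287, plus strand) start head to head and share 22 bases at their 5′ ends, printed here from the plus strand because both genes are transcribed through them.
Col4a1 and Col4a2, chr8:11312805-11312826: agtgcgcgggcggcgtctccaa
Col4a4 and Col4a3 start 71 bases apart on chromosome 1, and Col4a6 and Col4a5 start 1308 bases apart on chromosome X, also head to head. Col3a1 and Col5a2 lie tail to tail on chromosome 1 with 24614 bases between them, and Col6a2 and Col6a1 lie on the same strand of chromosome 10 with 85161 bases between them. No collagen gene shared more than 10% of its exon bases with another annotated gene. The library kit, Nextera XT, does not mark strand, so reads from the 22 shared bases cannot be assigned by strand.

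The 150 bases before the start of the single gene called in any comparison, Col6a2, and of Col3a1, a fibrillar gene, are given from RefSeq (GRCm38.p6), 5′ to 3′ on each gene's own strand, minus for Col6a2 and plus for Col3a1. Capitals mark the letters TATAAA.
Col6a2, chr10:76623631-76623780: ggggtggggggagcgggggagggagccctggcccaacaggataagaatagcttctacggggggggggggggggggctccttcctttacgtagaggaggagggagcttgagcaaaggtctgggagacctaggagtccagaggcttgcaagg
Col3a1, chr1:45311388-45311537: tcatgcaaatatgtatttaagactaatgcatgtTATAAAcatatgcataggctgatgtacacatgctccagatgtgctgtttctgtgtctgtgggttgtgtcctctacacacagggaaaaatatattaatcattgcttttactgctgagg
Promoter windows from 250 bases before to 50 bases after the start were matched by symbol for 35 of the 44 genes. The letters TATAAA, on either strand, stood in a window of 5 of the 35 genes (14.3%), against 15.7% of 27025 genes. CCAAT stood in a window of 13 of the 35 genes (37.1%), against 41.1% of 27025 genes, and GGGCGG in a window of 22 of the 35 genes (62.9%), against 38.2%. None of these 3 motifs contains another, and a match says only that the letters are present.

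The libraries held 8026397 to 24995288 counts, and 3 counts were worth 0.12 to 0.374 CPM, the counts of a gene scaled to its library's total. Genes with at least 10 counts numbered 3636 to 14428 a library. Summed markers of type I fibres (8 genes) were 46334 to 84445 CPM in the 6 type I libraries and 1.16 to 47.5 CPM in the 6 type IIb libraries, and those of type IIb fibres (8 genes) were 306 to 4493 CPM in type I and 98254 to 196733 CPM in type IIb libraries, as labelled. The third type I untrained library stood apart: it had the highest total, the most genes, and 94.4% of the 248697 collagen counts in the study. It held 97.4% of all fibrillar, 77.5% of all basement membrane and 88.1% of all other collagen counts. In RNA of whole libraries, fewer cells of a type and less RNA per cell cannot be told apart.

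Collagen RNA was uneven between libraries of the same group. Summed over the 44 genes it was 92.5, 73.6 and 186 CPM in type I trained libraries, and 392, 80.0 and 9393 CPM in type I untrained libraries. In type IIb fibres it was 20.97, 8.35 and 230 CPM in trained libraries, and 0, 16.5 and 0.498 CPM in untrained libraries. The highest type IIb trained library lay above every type I trained library, while the lowest type I untrained library lay between 2 type I trained libraries. All 6 type I libraries were above all 3 type IIb untrained libraries. The first type IIb untrained library had no count for any of the 44 genes among 9707337 counts.

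**Figure D2:**
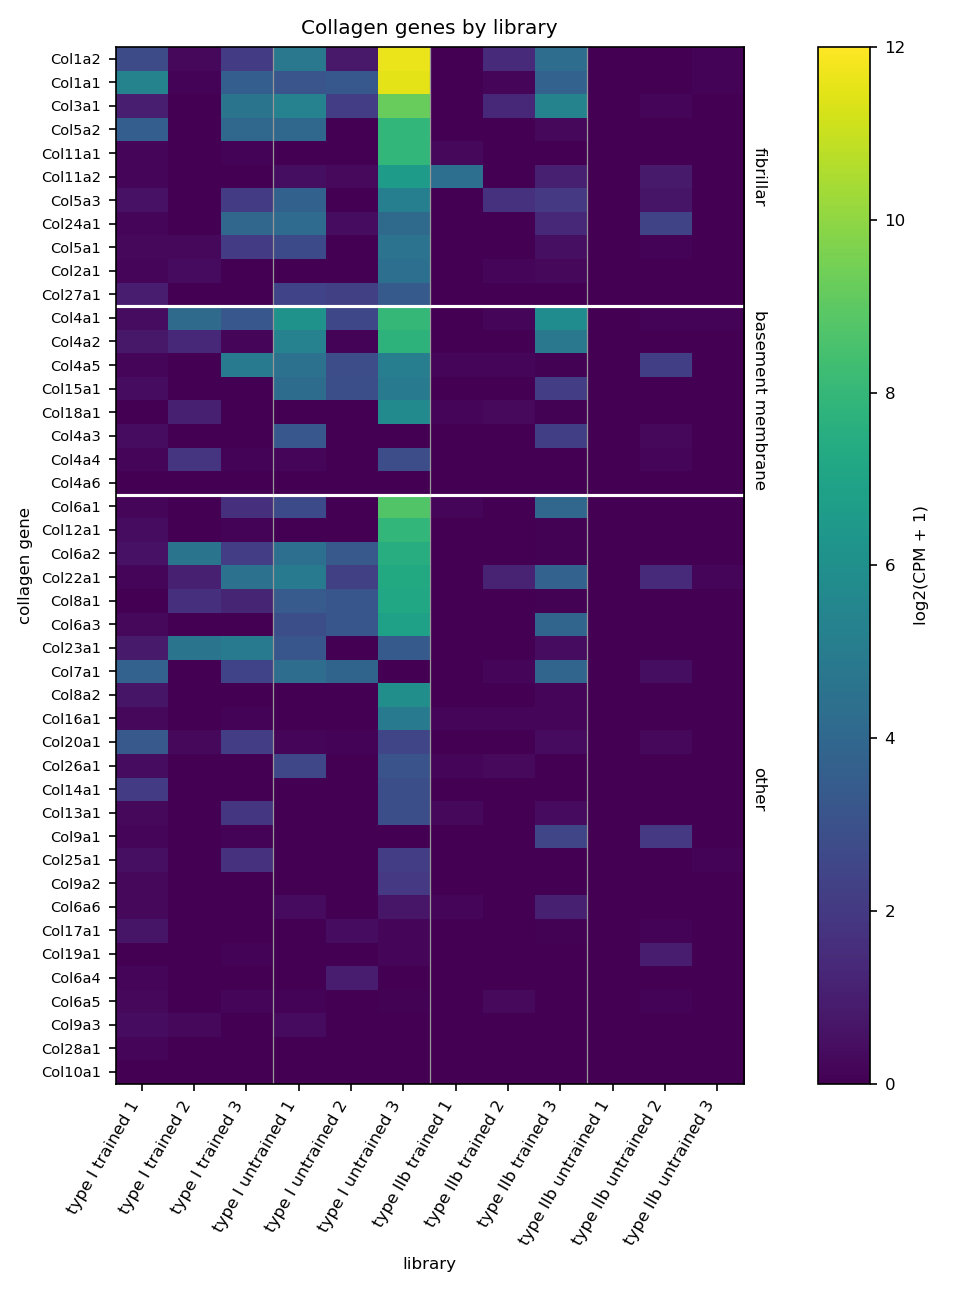
Level of each of the 44 collagen genes (rows, grouped by class and ordered by mean level within it) in each of the 12 libraries (columns, 3 per group), as log2(CPM + 1). The third type I untrained library has the highest value of most genes. The first type IIb untrained library is at 0 throughout and the third has 6 collagen counts in all, while the second reaches 4.44 CPM (Col24a1).

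Few collagens were detected repeatedly. A count was found for 42 of the 44 genes in some library, and the 2 without any were Col4a6, a basement membrane chain, and Col10a1, a short-chain collagen of growing cartilage. At least 10 counts were reached by 38 genes in some library, by 8 genes in exactly 1 library, and by 9 genes in exactly 2. No gene reached 10 counts in more than 8 of the 12 libraries, and the one that did so in 8 was Col22a1. The number of collagens with at least 10 counts was 7, 8 and 18 in type I trained libraries, against 21, 13 and 33 in type I untrained libraries. It was 1, 4 and 16 in type IIb trained libraries, against 0, 6 and 0 in type IIb untrained libraries. The 4 libraries with the most collagen RNA (the first and the third type I untrained, the third type I trained and the third type IIb trained library) were also the 4 with the most genes detected, from 10932 to 14428. With the number of genes detected as a covariate in the edgeR fit, the collagen medians moved, as given with the comparisons.

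The balance of the classes differed from library to library. Fibrillar collagens made up 64.5%, 1.07% and 40.2% of collagen counts in type I trained libraries, and 33.0%, 22.0% and 78.8% in type I untrained libraries. They made up 96.0%, 70.1% and 33.5% in type IIb trained libraries, and 37.0% and 33.3% in the 2 type IIb untrained libraries with a collagen count, the second of which had 6 such counts. Both fibre types thus had shares from below 40% to above 60%, and the trained and untrained ranges overlapped in each. Basement membrane collagens ranged from 2.01% to 30.2% in type I trained, from 6.34% to 40.4% in type I untrained, and from 1.01% to 39.3% in type IIb trained libraries. Other collagens ranged from 33.4% to 68.7% in type I trained, from 14.8% to 55.7% in type I untrained, and from 3.02% to 27.2% in type IIb trained libraries. A share is set by few genes where counts are low: in the first type IIb trained library, a single fibrillar gene, Col11a2, gave 94.97% of the 199 collagen counts.

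**Figure D3:**
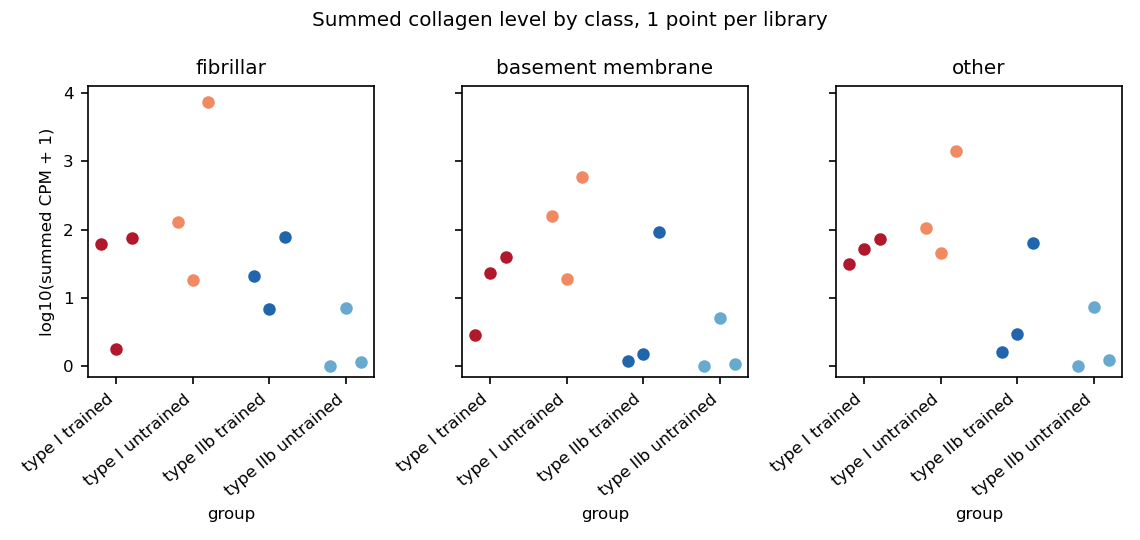
Summed level of fibrillar (left), basement membrane (middle) and other (right) collagens as log10(summed CPM + 1), 1 point per library in the 4 groups. In each class 1 type I untrained library is highest, at 7403 CPM for fibrillar, 596 CPM for basement membrane and 1395 CPM for other collagens. The first library of that group lies above all type I trained libraries in each class, and the second lies within their range.

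Per gene length, the most abundant collagens over the 12 libraries were Col1a1 at a mean of 140 FPKM and Col1a2 at 119 FPKM, followed by Col3a1 at 32.4, Col4a1 at 16.2 and Col6a1 at 15.03 FPKM. Without the third type I untrained library the order changed: Col4a1 led at 6.72 FPKM, ahead of Col3a1 at 5.47, Col1a1 at 4.11, Col4a2 at 2.30 and Col1a2 at 2.27 FPKM. The length in the authors' table matched the mean length of a gene's annotated transcripts to within 1 base for 41 of the 44 genes and was a median of 42.2% of all exon bases of the gene. With all exon bases as the length and without that library, Col4a1 and Col1a1 ranked first and second, Col3a1 number 4 and Col1a2 number 12, so the order among these genes depended on the length used.

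Collagen I is the main protein of tendon and of scar, and its chains are encoded by Col1a1 (ENSMUSG00000001506, mm10 chromosome 11, 94936224 to 94953042) and Col1a2 (ENSMUSG00000029661, chromosome 6, 4504814 to 4541544). Col1a1 was at 39.6, 0.0988 and 10.99 CPM in type I trained libraries and at 7.85, 8.99 and 2913 CPM in type I untrained libraries. In type IIb fibres Col1a1 was at 0, 0.125 and 12.8 CPM in trained libraries and at 0, 0 and 0.0830 CPM in untrained libraries. The trained and untrained libraries overlapped in type I and in type IIb fibres. Col1a2 was at 5.88, 0.198 and 3.23 CPM in type I trained libraries and at 26.9, 0.762 and 3205 CPM in type I untrained libraries. In type IIb fibres Col1a2 was at 0, 1.74 and 18.3 CPM in trained libraries and at 0, 0 and 0.0830 CPM in untrained libraries. The third type I untrained library held 98.7% of all Col1a1 and 99.1% of all Col1a2 counts.

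Collagen III, encoded by Col3a1 (ENSMUSG00000026043, chromosome 1, 45311538 to 45349706), forms thin fibrils in stretchable tissue. Col3a1 was at 1.03, 0 and 23.9 CPM in type I trained libraries and at 39.0, 3.50 and 594 CPM in type I untrained libraries. It was at 0, 1.62 and 39.7 CPM in type IIb trained libraries and at 0, 0.139 and 0 CPM in type IIb untrained libraries. The third type IIb trained library was thus above all 3 type I trained libraries for Col3a1. Col5a2, a chain of collagen V that is built into collagen I fibrils, was at 11.1, 0 and 15.7 CPM in type I trained libraries and at 15.8, 0 and 244 CPM in type I untrained libraries. In all 6 type IIb libraries Col5a2 had at most 3 counts.

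The chains of collagen XI, a fibrillar collagen best known in cartilage, were found in few libraries. Col11a1 had 6204 counts in the third type I untrained library and at most 2 counts in any other. Col11a2 had 1, 0 and 0 counts in type I trained libraries and 4, 3 and 2378 counts in type I untrained libraries. It had 189, 0 and 16 counts in type IIb trained libraries and 0, 12 and 0 counts in type IIb untrained libraries, so that in each type IIb group a single library held most of its counts. The remaining 5 fibrillar genes (Col2a1, Col5a1, Col5a3, Col24a1 and Col27a1) reached 10 counts in 1 to 5 libraries each, with totals of 348 to 1135 counts.

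Collagen IV is the network-forming collagen of basement membranes. Col4a1 was at 0.309, 17.0 and 8.55 CPM in type I trained libraries and at 71.1, 5.03 and 258 CPM in type I untrained libraries. It was at 0, 0.125 and 56.1 CPM in type IIb trained libraries and at 0, 0.0694 and 0.0830 CPM in type IIb untrained libraries. Every type I library was therefore above every type IIb untrained library for Col4a1, while trained and untrained libraries of each fibre type overlapped. The first type I trained library, lowest of the type I libraries, had 3 counts of Col4a1. The type IIb untrained libraries had 0, 1 and 1, so this order rested on few counts of Col4a1. Col4a2, its usual partner chain, was at 0.722, 1.58 and 0.144 CPM in type I trained libraries and at 38.8, 0.0762 and 216 CPM in type I untrained libraries. Col4a2 was at 0, 0 and 27.2 CPM in type IIb trained libraries and had no count in the 3 type IIb untrained libraries. Col4a5, a chain of the collagen IV network of kidney and of some other basement membranes, was at 0.103, 0 and 29.7 CPM in type I trained libraries and at 21.7, 6.25 and 34.0 CPM in type I untrained libraries. In type IIb fibres it was at 0.105, 0.125 and 0.0654 CPM in trained libraries and at 0, 3.61 and 0 CPM in untrained libraries, and it was the single one of these 3 chains without a high value in the third type IIb trained library. The other basement membrane genes with a count (Col4a3, Col4a4, Col15a1 and Col18a1) totalled 163 to 1319 counts and reached 10 counts in 2 to 4 libraries.

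Collagen VI forms beaded filaments at the outer face of the muscle fibre's basement membrane, and loss of its chains is known to cause muscle disease. Col6a2 (ENSMUSG00000020241, chromosome 10, 76595762 to 76623630, minus strand; its upstream bases are printed above) had 5, 239 and 49 counts in type I trained libraries and 231, 122 and 4365 counts in type I untrained libraries. It had 0, 0 and 1 count in type IIb trained libraries and 0, 0 and 0 counts in type IIb untrained libraries. In CPM this was 0.516, 23.6 and 3.52 in type I trained and 19.7, 9.29 and 175 in type I untrained libraries, against at most 0.0654 in type IIb libraries. All 6 type I libraries were above all 6 type IIb libraries, and trained and untrained type I libraries overlapped. Its partner chains were less regular. Col6a1 had 1, 0 and 30 counts in type I trained, 64, 0 and 10776 in type I untrained, 1, 0 and 220 in type IIb trained, and none in type IIb untrained libraries. Col6a3 had 2, 0 and 0 counts in type I trained, 74, 107 and 2864 in type I untrained, 0, 0 and 219 in type IIb trained, and none in type IIb untrained libraries. The third type IIb trained library thus had 220 counts of Col6a1 and 219 of Col6a3 but 1 count of Col6a2, and the second type I trained library had 239 counts of Col6a2 with none of its partners.

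Among the remaining collagens, Col22a1, a fibril-associated collagen of the muscle-tendon junction, was the most regularly found. It was at 0.103, 1.09 and 21.5 CPM in type I trained libraries and at 30.3, 3.88 and 157 CPM in type I untrained libraries. It was at 0, 1.25 and 12.6 CPM in type IIb trained libraries and at 0, 1.80 and 0.166 CPM in type IIb untrained libraries, with overlap between trained and untrained libraries in both fibre types. Col12a1, another fibril-associated collagen, had 6196 counts in the third type I untrained library and at most 3 in any other. Col8a1, a short-chain collagen of vessel walls, was at 0, 2.17 and 1.36 CPM in type I trained libraries and at 9.81, 8.30 and 140 CPM in type I untrained libraries, without overlap, and had 1 count in the 6 type IIb libraries together. Col23a1, a transmembrane collagen, had its 2 highest values in trained libraries: it was at 0.825, 23.3 and 31.0 CPM in type I trained and at 8.27, 0 and 9.40 CPM in type I untrained libraries, with overlap. In type IIb fibres Col23a1 had 5 counts in the third trained library and none elsewhere. Col7a1, the collagen of skin anchoring fibrils, was singled out after its values were seen: it had 122, 0 and 61 counts in type I trained, 219, 179 and 0 in type I untrained, 0, 1 and 218 in type IIb trained, and 0, 5 and 0 in type IIb untrained libraries. It was thus without a count in the library that held most collagen RNA.

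The ratio of chains that can share a trimer varied between libraries. Where both chains had at least 10 counts, the Col1a1 to Col1a2 ratio in FPKM was 8.65 and 4.37 in 2 type I trained libraries, 0.375, 15.2 and 1.17 in the 3 type I untrained ones, and 0.899 in 1 type IIb trained library. The Col4a1 to Col4a2 ratio was 13.6 in 1 type I trained library, 2.32 and 1.51 in 2 type I untrained ones, and 2.61 in 1 type IIb trained library. The 2 libraries with the most counts of each pair had ratios of 1.17 and 0.899 for collagen I and of 1.51 and 2.32 for collagen IV. The Col6a1 to Col6a2 ratio was 1.10 in 1 type I trained library, and 0.497 and 4.43 in 2 type I untrained libraries. The Col6a3 to Col6a2 ratio was 0.306, 0.838 and 0.627 in the 3 type I untrained libraries. The rule of 10 counts left out the libraries where these chains differed most. Counts of Col6a3 and Col6a2 were 0 and 239 in the second and 0 and 49 in the third type I trained library. They were 219 and 1 in the third type IIb trained library. The Col5a1 to Col5a2 ratio was 0.175 in 1 type I trained library, and 0.292 and 0.0789 in 2 type I untrained libraries. For genes of different trimers, Col3a1 to Col1a1 ranged from 0.0257 to 4.89 over the 6 libraries with both, so that either gene could be the more abundant per length.

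The study's title asks how endurance training changed type I and type IIb fibres, and in type I fibres no collagen passed the test. Of the 44 genes, 21 had enough counts to be tested among 11747 genes, namely 9 fibrillar, 4 basement membrane and 8 other collagens. A gene could pass this filter through the libraries where it was high, so counts and medians over the 21 genes describe these genes and not all 44. At an adjusted p under 0.05 (edgeR's quasi-likelihood test with Benjamini-Hochberg adjustment over all genes), 0 of 21 collagens and 0 of all genes (0%) were called. DESeq2 called 0 collagens and 0.502% of all genes, and limma-voom 0 collagens and 0.0596% of all genes. At an unadjusted edgeR p under 0.05, 4 collagens were lower in type I trained fibres (Col1a2, Col6a1, Col6a3 and Col11a2) and none was higher, against 2.53% of all genes lower and 0.409% higher. The median log2 fold change, type I trained over untrained, was -3.53 for the 21 collagens and -0.28 for all genes, and the collagen median of pooled-count folds was -3.83 on the log2 scale. The 3 type I trained libraries lay below all 3 type I untrained libraries for 5 collagens (Col6a3, Col8a1, Col11a2, Col15a1 and Col27a1), against 8.2% of all genes tested. Without the third type I untrained library the median was -1.57 for 23 collagens tested and -0.15 for all genes, and no collagen had an unadjusted p under 0.05. The pooled-count median was then -1.40. With the number of genes detected as a covariate the median was -0.67 for the 21 collagens and 0.36 for all genes, with 8 of 21 collagens above 0, against 2 of 21 without the covariate. The log2 fold change of Col1a2 was -7.85 ± 2.91 (SE, edgeR) with that library and -1.75 without it, and that of Col6a2 was -2.16 with it and -0.15 without it.

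In type IIb fibres no collagen passed the edgeR test either, and most of the difference lay in 1 library. By edgeR, 0 of 21 collagens and 0 of all genes (0%) were called. DESeq2 called 3.1% of all genes and, among the collagens, Col3a1, Col4a1 and Col4a2 as higher in type IIb trained fibres, and limma-voom called none (0%). At an unadjusted edgeR p under 0.05, 7 collagens were higher in type IIb trained fibres, against 6.87% of all genes higher: Col1a2, Col3a1, Col4a1, Col4a2, Col6a1, Col6a3 and Col15a1. The median log2 fold change, type IIb trained over untrained, was 3.96 for the 21 collagens and 0.36 for all genes. Fitted values of genes without a count in a group depend on edgeR's prior count, and over the 17 collagens with a pooled-count fold, 5 of them at a bound from 3 counts, the median was 4.41. Without the third type IIb trained library the median was 0 for 27 collagens tested and 0 for all genes, 11 of the 27 were above 0, and no collagen had an unadjusted p under 0.05. For none of the 21 did the 3 trained libraries lie above the 3 untrained libraries, against 2.46% of all genes. Col4a1 had its type IIb counts almost wholly in 1 trained library: it had 0, 1 and 858 counts in type IIb trained, against 0, 1 and 1 count in type IIb untrained libraries. Its log2 fold change was 8.25 ± 3.00 (SE, edgeR adjusted p = 0.597), and 0.43 without the third type IIb trained library. Col3a1, with 0, 13 and 607 counts in type IIb trained against 0, 2 and 0 in type IIb untrained libraries, had a log2 fold change of 7.87 with that library and 4.13 without it.

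Whether training differed between the fibre types was tested as an interaction. By edgeR 0 of 21 collagens and 0 of all genes (0%) were called, by limma-voom none (0%), and by DESeq2 3.35% of all genes and the collagens Col3a1, Col4a1, Col4a2 and Col15a1. At an unadjusted edgeR p under 0.05, 9 collagens had a lower training difference in type I fibres than in type IIb fibres, against 7.98% of all genes. The median interaction was -6.68 on the log2 scale for the 21 collagens and -0.68 for all genes. The collagen median was -5.46 without the third type I untrained library, and -3.57, beside 0.18 for all genes, without the third type IIb trained library. It was -3.11, beside 0.11 for all genes, with the number of genes detected as a covariate.

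**Figure D4:**
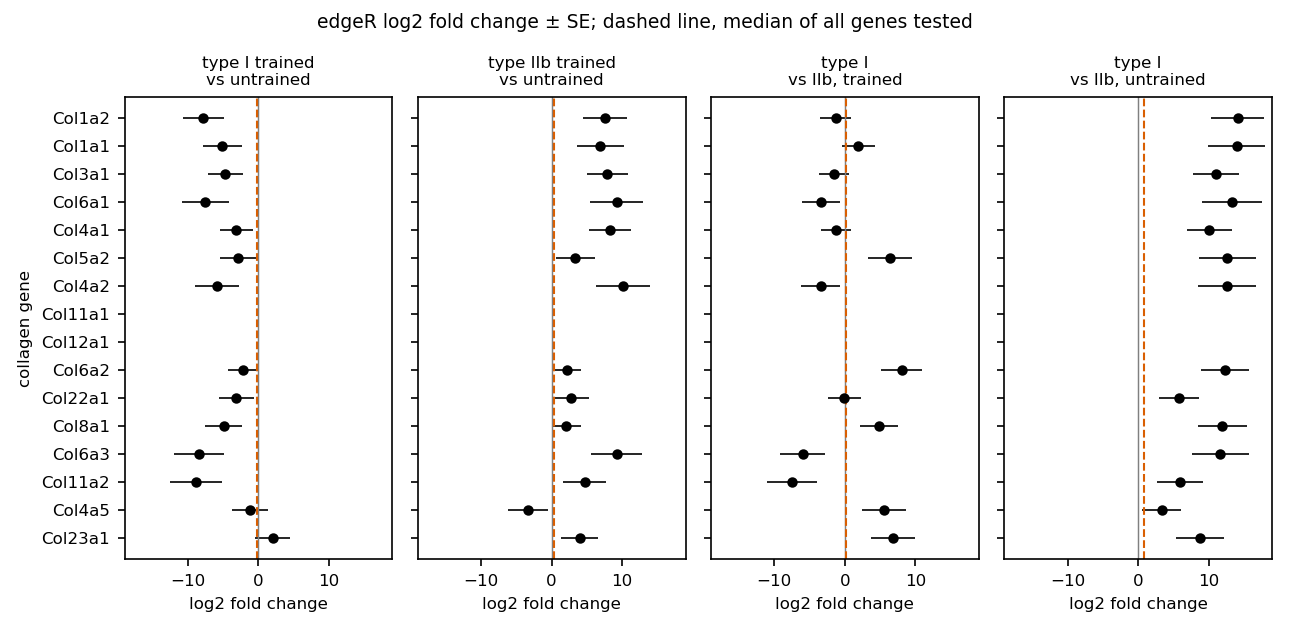
edgeR log2 fold changes (points) with SE (bars) of the 16 collagens with the highest mean CPM, for training in type I and in type IIb fibres and for type I over type IIb fibres in trained and in untrained mice; the dashed line is the median of all genes tested. Values of genes without a count in a group depend on edgeR's prior count. Col11a1 and Col12a1 were not tested because 1 library held nearly all of their counts, and the points lie mostly left of 0 for training in type I and right of 0 for training in type IIb fibres, with none called in these 4 comparisons.

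Between fibre types, 21 of 21 collagens had a log2 fold change above 0, type I over type IIb, in untrained mice, and 11 of 21 in trained mice. The medians of all genes were also above 0, at 0.85 and 0.21. Without the third type I untrained library, Col11a2 had 7 pooled counts in type I untrained against 12 in type IIb untrained libraries. Col20a1 then had 3 against 3, and the other tested collagens stayed higher in type I untrained libraries. In trained mice edgeR called 0 of 21 collagens and 0.536% of all genes, DESeq2 called Col6a2 as higher in type I fibres and 2.95% of all genes, and limma-voom called 0 collagens and 1.49% of all genes. At an unadjusted p under 0.05 there were 3 collagens, against 8.03% of all genes: Col6a2 and Col23a1 were higher and Col11a2 lower in type I fibres. In trained mice the median of type I over type IIb, on the log2 scale, was 0.16 for the collagens and 0.21 for all genes, and with DESeq2's size factors in place of TMM it was -0.05 for the collagens and 0.17 for all genes. Without the third type IIb trained library it was 5.89 for 27 collagens and 1.44 for all genes, with 24 of 27 collagens above 0, and without the third type I trained library it was -0.97. Col6a2 and Col23a1 were also the 2 collagens with all type I trained above all type IIb trained libraries, against 9.07% of all genes.

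In untrained mice edgeR called 0 of 21 collagens and 0.46% of all genes, while DESeq2 called 9 collagens (8.78% of all genes) and limma-voom 11 collagens (17.9% of all genes). At an unadjusted edgeR p under 0.05, 14 collagens were higher in type I fibres and none lower, against 15.5% of all genes higher and 1.94% lower. In untrained mice the median of type I over type IIb, on the log2 scale, was 10.11 for the collagens and 0.85 for all genes, and it was 7.55 for collagens and 0.72 for all genes without the third type I untrained library. From pooled counts, with 9 of the 21 collagens at a bound from 3 counts, the median was 8.26. Without the third type I untrained library it was 6.07 over 20 collagens. Col20a1, with 3 counts against 3, was then given no fold. With the number of genes detected as a covariate the fitted median was 6.21 for the collagens and -0.04 for all genes. All type I untrained libraries lay above all type IIb untrained libraries for 12 of 21 collagens, against 30.1% of all genes. Among the 12, Col4a2 had 1 count in the second type I untrained library and 0 in each type IIb untrained library. A single count could thus set the groups apart, as the type IIb untrained libraries held 0, 238 and 6 collagen counts. Col6a1 was at least 1719-fold and Col4a2 at least 929-fold higher in type I untrained fibres, taking 3 counts over the type IIb untrained group. Without the third type I untrained library these bounds were 22.6-fold for Col6a1 and 161-fold for Col4a2. Col3a1 had 15348 pooled counts in type I untrained against 2 in type IIb untrained libraries, a ratio with a counting interval of 1011 to 30155, and 503 counts without the third type I untrained library, with an interval of 73.5 to 2211.

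Over both training states, Col6a2 was the single collagen that passed the test. It was higher in type I fibres, with a log2 fold change of 10.19 ± 2.23 (SE) and an edgeR adjusted p of 0.0235, in 6 of 6 type I libraries against 6 of 6 type IIb libraries. That is 1 of 21 collagens, against 1.93% of all genes. DESeq2 called 7 collagens (9.18% of all genes) and limma-voom 3 collagens (9.66% of all genes), Col6a2 among them in both. The call was lost with the number of genes detected as a covariate (edgeR adjusted p = 0.0961), with the replicate number as a block (edgeR adjusted p = 0.0584) and in limma on log2(FPKM + 1) (adjusted p = 0.0706). Pooled, Col6a2 had 5011 counts in type I and 1 count in type IIb libraries, a ratio of 2783 with a counting interval of 499 to 109947, and without the third type I untrained library 646 counts against 1, a ratio of 553 with an interval of 98.9 to 21877. No other of the 21 collagens had all type I above all type IIb libraries, against 3.4% of all genes. Another 13 collagens were higher at an unadjusted p under 0.05, so that 14 of 21 stood there against 13.7% of all genes. Col8a1 (log2 fold change 8.43 ± 2.20, edgeR adjusted p = 0.0628) and Col5a2 (9.52 ± 2.54, edgeR adjusted p = 0.0680) came nearest to the threshold.

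The Col6a2 call rested on several libraries. Its edgeR adjusted p was 0.11 without the third type I untrained library and 0.0539 without the second type I trained library. It was 0.0678, 0.0991 and 0.0625 without the first, the second and the third type IIb trained library, and 0.0603 and 0.0732 without the second and the third type IIb untrained library, and it stayed under 0.05 without any other single library. The log2 fold change lay between 8.79 and 11.29 in all of these fits.

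Markers of other cells were high in some of the libraries with much collagen RNA, and the lists differed in this. Of 10 fibroblast markers, 10 had at least 10 counts in the third type I untrained library, where they summed to 2896 CPM, against at most 242 CPM in any other library. By group, fibroblast markers summed to 15.9 to 91.9 CPM in type I trained and 13.7 to 2896 CPM in type I untrained libraries. They summed to 0.527 to 242 CPM in type IIb trained and 2.98 to 10.5 CPM in type IIb untrained libraries. Many of these sums rested on few of the 10 genes. Those with at least 10 counts numbered 2, 3 and 2 in type I trained and 6, 2 and 10 in type I untrained libraries. In type IIb fibres they numbered 0, 4 and 7 in trained and 1, 3 and 1 in untrained libraries. Of 8 tendon markers, all had at least 10 counts in the third type I untrained library, with a sum of 4998 CPM, and Tnmd, Mkx, Fmod, Kera and Chad were among those at 0 in the second. Tendon markers summed to 0.619 to 31.5 CPM in type I trained, 35.0 to 4998 CPM in type I untrained, 0 to 65.9 CPM in type IIb trained and 12.0 to 328 CPM in type IIb untrained libraries. The value of 328 CPM, second highest of the 12, was in the type IIb untrained library without a collagen count, where 1 of the 8 tendon markers had at least 10 counts. The third type I trained library, among the 4 with the most collagen RNA, had 15.9 CPM of fibroblast and 6.97 CPM of endothelial markers. Of 10 endothelial markers, all 10 had counts in the first and the third type I untrained and in the third type IIb trained library, at 826, 533 and 177 CPM. Endothelial markers summed to 1.44 to 35.8 CPM in type I trained libraries, 20.8 CPM in the second type I untrained library, at most 0.498 CPM in the first 2 type IIb trained libraries, and 0 in the 3 type IIb untrained libraries. Mural markers (10 genes of vessel wall cells) summed to 60.7 to 363 CPM in type I trained, 110 to 1227 CPM in type I untrained, 28.3 to 256 CPM in type IIb trained and 115 to 260 CPM in type IIb untrained libraries. In each type IIb untrained library, and in the first and the second type IIb trained library, 1 of the 10 mural markers had a count. That marker was Abcc9, so the mural sum there is the level of a single gene. A fit left out the 3 libraries highest in endothelial markers. These libraries also held the most collagen RNA, and the second type I untrained library was then the only one left of its group. Col6a2 there had a log2 fold change of 9.67 for type I over type IIb fibres. In that fit of 26 collagens the collagen median was 2.25 for training in type I fibres, 0 for training in type IIb fibres and 2.41 for the interaction, beside 0.30, 0 and 1.20 for all genes. Between fibre types it was 5.82 in trained and 1.00 in untrained mice, beside 1.55 and 0 for all genes. Since that fit also removed most of the collagen RNA, it cannot separate the 2, and the part of these cells in the collagen differences was not tested.

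**Figure D5:**
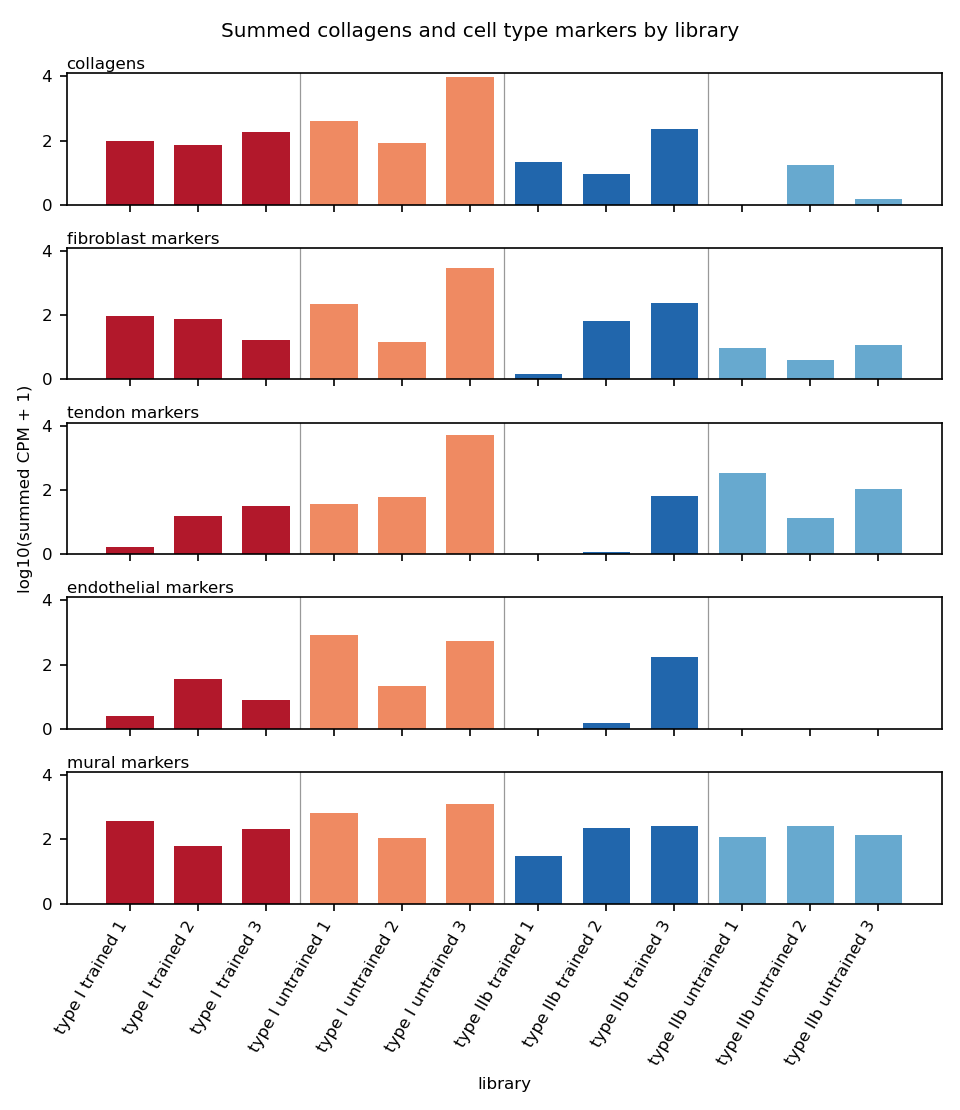
Summed level of the 44 collagens and of fibroblast, tendon, endothelial and mural markers in each of the 12 libraries, as log10(summed CPM + 1), coloured by group. The third type I untrained library is highest for collagens (9393 CPM), fibroblast (2896 CPM), tendon (4998 CPM) and mural markers (1227 CPM), and the first is highest for endothelial markers (826 CPM). In the first and the second type IIb trained and in every type IIb untrained library, the mural bar is Abcc9 alone.

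Of 7 lists of genes that make, cross-link, bind or break down collagen, 2 genes passed the edgeR test in any of the 6 comparisons. Sparc, which encodes a collagen-binding protein of basement membranes, was higher in untrained mice in type I than type IIb fibres (log2 fold change 7.45 ± 1.58 SE, edgeR adjusted p = 0.0373). Its log2 fold change was 4.29 (edgeR adjusted p = 0.405) without the third type I untrained library, and the call was lost without 8 of the 12 libraries, each left out alone, with edgeR adjusted p from 0.0046 to 0.405. With DESeq2's size factors in place of TMM its edgeR adjusted p was 0.0928. Sparc was at 18.1, 13.2 and 40.5 CPM in type I trained and at 199, 21.9 and 3063 CPM in type I untrained libraries. It was at 17.0, 16.4 and 76.5 CPM in type IIb trained and at 0.206, 1.74 and 9.21 CPM in type IIb untrained libraries. Ctgf, a matrix protein gene that responds to transforming growth factor beta, was higher in type I fibres over both training states (log2 fold change 6.02 ± 1.502 SE, edgeR adjusted p = 0.0435). The call was lost without 9 of the 12 libraries, each left out alone, with edgeR adjusted p from 0.0127 to 0.201, the highest without the third type I untrained library. Ctgf was at 57.5, 36.1 and 55.2 CPM in type I trained and at 34.9, 68.9 and 548 CPM in type I untrained libraries, against at most 7.06 CPM in type IIb libraries, without overlap.

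By list, 1 of 11 tested basement membrane partners (Sparc) was called between fibre types in untrained mice, against 0.46% of all genes, and 1 of 9 tested fibrogenic regulators (Ctgf) over both training states, against 1.93% of all genes. In the 6 comparisons none was called of 13 tested genes of chain modification and folding, 7 of export and propeptide removal, 2 of cross-linking, 6 collagen receptors and 8 of collagen breakdown. The median log2 fold change for training in type I fibres, beside -0.28 for all genes, was -1.12 for chain modification and folding, -2.26 for export, -2.31 for receptors, -3.42 for breakdown, -1.42 for basement membrane partners, -0.93 for fibrogenic regulators and -6.77 for the 2 cross-linking genes. For training in type IIb fibres, beside 0.36 for all genes, the medians were 0.40, 0.01, 3.40, 4.52, 1.52, 0.64 and 4.93 in the same order. These list medians are of the main fit alone. None was taken without the third type I untrained or the third type IIb trained library. Some genes of the lists were found in every library: P4hb, a subunit of the prolyl hydroxylase of collagen, was at 14.1 to 235 CPM and Dag1, the dystroglycan that anchors the fibre to its basement membrane, at 83.3 to 366 CPM. Lox, which encodes the collagen cross-linking enzyme lysyl oxidase, was at 242 CPM in the third type I untrained library and at most 0.103 CPM in the 11 others. Postn, which encodes a matrix protein of tendon and scar, was at 1192 CPM in that library and at 10.6 CPM in the third type I trained library, with at most 0.305 CPM elsewhere. Mmp2, a collagen-degrading enzyme, was at 0, 30.5 and 1.51 CPM in type I trained, 0.171, 0 and 351 CPM in type I untrained, 0, 0 and 5.04 CPM in type IIb trained, and 0 CPM in all type IIb untrained libraries.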

How the data were processed

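RNA-seq was analysed in 12 libraries, grouped by their titles. The deposited count table holds unnormalised read counts per gene, and the deposited FPKM values equalled count divided by table length and library total to within 0.361%. Per the submitters' processing notes, reads were aligned with TopHat2 to mm10; the counting program is not given in the sources used here. Members and lists were chosen with earlier results of these data known. CPM scale each count to its library's total, without TMM. Tests used edgeR 4.0.16 in R 4.3.3 (robust quasi-likelihood fit, TMM, minimum count 10 and minimum total count 15, 11747 genes), with 1 mean per group and 6 two-sided comparisons. SE is the absolute log2 fold change over the square root of F. Alternatives used DESeq2 1.42.0, limma 3.58.1, other scalings, filters and pseudocounts, and each library left out. The 16 collagens of highest mean CPM and every called collagen are given by library. Pooled folds use TMM-scaled totals, a floor of 3 counts over the group, and exact 95% intervals that cover counting error only, since amplified reads carry no molecular identifiers. Tests were checked on simulated counts of genes above a minimum level, with the same fold change in every library of the changed group. That check did not cover genes whose counts lie mostly in a single library. Unused per-sample columns numbered 0.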

Additional observations from a re-analysis of the deposited data

How the results depend on the processing

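Each of the 6 comparisons was repeated under 24 alternatives, and the cause of a moved count was not tested. Counts of calls are given as collagens, then all genes. The fits without the low-count filter tested 42 collagens and 28696 genes, more than the main fit, so their counts are shares of a larger set. Without the low-count filter edgeR called 1 and 7 for training in type I fibres, and 0 and 9 for training in type IIb fibres. It called 4 and 123 between fibre types in untrained mice. Over both training states it called 5 (Col1a1, Col1a2, Col3a1, Col5a2 and Col6a2) and 310, and for the interaction 3 and 26. DESeq2 called 0 and 59, 3 and 364, 9 and 1031, 1 and 346 (trained mice), 7 and 1078, and 4 and 394, in the same order with trained mice after untrained mice. Limma-voom with quality weights called 0 and 7 for training in type I fibres, 11 and 2100 between fibre types in untrained mice, 175 genes in trained mice, and 3 and 1135 over both states. Limma on log2(FPKM + 1) called 1 and 329 in untrained mice, 126 genes in trained mice, and 0 and 592 over both states. With a pseudocount of 0.1 it called 3 and 307, 115 genes, and 2 and 562. On log2(FPKM + 1) without a filter it called 1 and 161, 108 genes, and 0 and 324. A fit of only the groups compared called 39 genes in trained mice. With the number of genes detected as a covariate 33 genes were called in untrained mice, and 0 collagens and 154 genes over both states.

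The labels' replicate numbers recur in each group, but same-numbered libraries deviated together with correlations of only -0.06 to 0.199, so the numbers were not taken to pair them. With the replicate number as a block edgeR called 1 collagen (Col1a1) and 42 genes in untrained mice, and 41 genes in trained mice. Over both states it called 138 genes, with Col1a1 in place of Col6a2 (edgeR adjusted p of Col6a2 = 0.0584).

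Leaving out each library in turn gave 0 to 1 genes for training in type I fibres, 0 to 2 in type IIb fibres, 22 to 63 in untrained mice, 29 to 77 in trained mice, 119 to 220 over both states and 0 to 2 for the interaction, and 0 to 1 collagens over both states and 0 elsewhere. Chosen after seeing the data, the fit without the 3 libraries highest in endothelial markers called 2 genes for training in type IIb fibres, 25 in untrained mice, and 0 collagens and 89 genes over both states. There the training difference in type I fibres was 2.04 for Col1a2 and 0.30 for Col6a2 on the log2 scale, that in type IIb fibres 0 for Col4a2 and Col6a2, and the interaction 2.66 for Col6a1 and 0.30 for Col6a2, all of the other sign or 0. The training difference in type IIb fibres ranged from 0 to 10.78 for Col4a2 and from 0 to 2.60 for Col6a2 with single libraries left out, the 0 being without the third trained library. A further fit added after the data were seen, which left out the 2 libraries with fewest genes detected, called 1 gene for training in type IIb fibres and 1 for the interaction. DESeq2's size factors in place of TMM changed no call of a collagen and moved the median of all genes to -0.57 from -0.28 for training in type I fibres, and to 1.17 from 0.85 between fibre types in untrained mice. Of the log2 fold changes under alternatives, 449 kept their direction and side of the threshold, 19 passed it, 12 lost it and 8 turned. Depth limits the low genes: 3 counts were worth 0.12 to 0.374 CPM.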
